A study of Mus musculus with 20 samples.

Results

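Expression of 10 genes of phosphatidylcholine synthesis was measured in the liver of mice that received corticosterone (CORT), an antibody against the acyl-CoA-binding protein ACBP, both or neither. The genes Chpt1, Cept1, Pemt, Pcyt1a, Pcyt2, Chka, Etnk1, Lpin1, Lpin2 and Lpcat3 were taken by symbol from the 48440 genes of the count table, each symbol matched 1 row, and all 10 passed the filter on low counts. Chpt1 was selected on its lower counts in αACBP + CORT than in Isotype + CORT livers, and the other 9 genes for their place in the same pathway. Values of that comparison are therefore given as a description, without a test.

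Phosphatidylcholine is the main phospholipid of cell membranes and of the surface of the lipoprotein particles that the liver secretes. Hepatocytes make it by the CDP-choline route, in which choline is phosphorylated, activated to CDP-choline and joined to diacylglycerol, and by methylation of phosphatidylethanolamine, a route prominent in the liver. The enzyme encoded by Chpt1, choline phosphotransferase, catalyses the last step of the CDP-choline route, a step that the product of Cept1, which also uses CDP-ethanolamine, can carry out too.

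The livers came from 20 wild-type female C57BL/6 mice, 5 in each of 4 groups, which were used at 8 weeks of age and whose livers were taken at the end of week 5. The Isotype + Vehicle group received injections of an IgG2a isotype control antibody and no CORT, and the Isotype + CORT group the same antibody with CORT in the drinking water. The αACBP + Vehicle and αACBP + CORT groups received a neutralizing monoclonal antibody against ACBP, also called DBI, in place of the isotype control. RNA was taken from whole frozen liver, so that fewer cells of a type and less RNA per cell cannot be told apart.

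Between 14934926 and 20299999 read pairs per liver were counted on genes, and levels are given in CPM, counts scaled to a common library size after TMM normalization. At the lowest total, 3 counts amount to 0.201 CPM, a limit that covers counting error only. All 8 hepatocyte markers checked were detected, with summed levels of 71028 to 123357 CPM in Isotype + Vehicle, 86140.0 to 140277 CPM in Isotype + CORT, 39508 to 95675 CPM in αACBP + Vehicle and 75809 to 109141 CPM in αACBP + CORT livers. Replicate 5 of the αACBP + Vehicle group stood apart from the others: its mean correlation with its group was the lowest of all 20 livers (0.874), and it held the lowest hepatocyte marker sum. Values without it stand beside several of the differences with αACBP under vehicle.

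The promoters of Chpt1 and Cept1 are shown because these genes encode enzymes of the same last step and their counts moved differently with CORT, and that of Lpin2 because it was the only other member to pass the adjusted p in a tested comparison. Each window runs from 250 bases before to 50 bases after the start of a RefSeq transcript on GRCm38.p6. Windows were found for 9 of the 10 genes, all but Pcyt2, and the first listed is printed where a gene has several. Capitals mark matches on either strand to 1 of 6 motifs: the palindromic glucocorticoid response element, the E-box CACGTG of CLOCK and BMAL1, the D-box TTATGNAA of DBP, TEF and HLF, the CCAAT box, the GC box GGGCGG and the peroxisome proliferator response element.
Chpt1, chr10:88503921-88504220, minus strand: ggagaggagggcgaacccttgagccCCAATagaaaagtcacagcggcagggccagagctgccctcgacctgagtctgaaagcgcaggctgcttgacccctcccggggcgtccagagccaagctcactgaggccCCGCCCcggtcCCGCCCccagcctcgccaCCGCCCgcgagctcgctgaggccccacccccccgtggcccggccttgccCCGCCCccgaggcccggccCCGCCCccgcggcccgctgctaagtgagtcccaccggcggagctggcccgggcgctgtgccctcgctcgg
Cept1, chr3:106547753-106548052, minus strand: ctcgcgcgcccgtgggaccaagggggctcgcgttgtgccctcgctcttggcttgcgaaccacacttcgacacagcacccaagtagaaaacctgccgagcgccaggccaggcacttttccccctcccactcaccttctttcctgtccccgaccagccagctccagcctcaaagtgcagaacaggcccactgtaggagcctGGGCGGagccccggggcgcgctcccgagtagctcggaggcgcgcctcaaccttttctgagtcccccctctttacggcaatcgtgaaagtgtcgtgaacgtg
Lpin2, chr17:71183282-71183581, plus strand: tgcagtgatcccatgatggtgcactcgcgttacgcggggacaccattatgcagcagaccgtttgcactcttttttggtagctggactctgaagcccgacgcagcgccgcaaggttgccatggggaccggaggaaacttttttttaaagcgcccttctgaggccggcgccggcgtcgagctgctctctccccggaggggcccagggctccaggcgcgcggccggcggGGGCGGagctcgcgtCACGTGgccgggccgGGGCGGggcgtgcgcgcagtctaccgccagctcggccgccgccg
The Chpt1 window held 1 CCAAT box and 5 GC boxes, the Cept1 window 1 GC box, and the Lpin2 window 1 E-box and 2 GC boxes. The windows of Cept1 not printed held GC boxes and a CCAAT box, and those of Lpin2 a GC box and CCAAT boxes. Of 32851 windows of the same length, 37.4% held a CCAAT box, 35.7% a GC box and 7.15% an E-box. The glucocorticoid response element was in 0.475% of all windows, the D-box in 3.38% and the peroxisome proliferator response element in 0.0396%. These 3 motifs were in none of the 16 windows of the members, which says only that the letters searched are not in these stretches.

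Chpt1 (ENSMUSG00000060002.14; chromosome 10, 88288348 to 88340029, minus strand, GRCm39) has 14 separate stretches of exon. CORT raised its transcript under isotype, and its levels in all 5 Isotype + CORT livers exceeded those in the other 15 livers. It was at 101, 89.6, 82.9, 65.4 and 99.4 CPM in the Isotype + Vehicle livers and at 267, 290.2, 154, 267 and 605 CPM in the Isotype + CORT livers, each in the order of the replicate numbers. The αACBP + Vehicle livers had 56.9, 93.5, 60.8, 52.2 and 34.6 CPM, and the αACBP + CORT livers 99.6, 139, 104, 129 and 66.2 CPM. The Isotype + CORT livers ranged widely, with replicate 5 high and replicate 3 low, but did not overlap any other group.

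**Figure D1:**
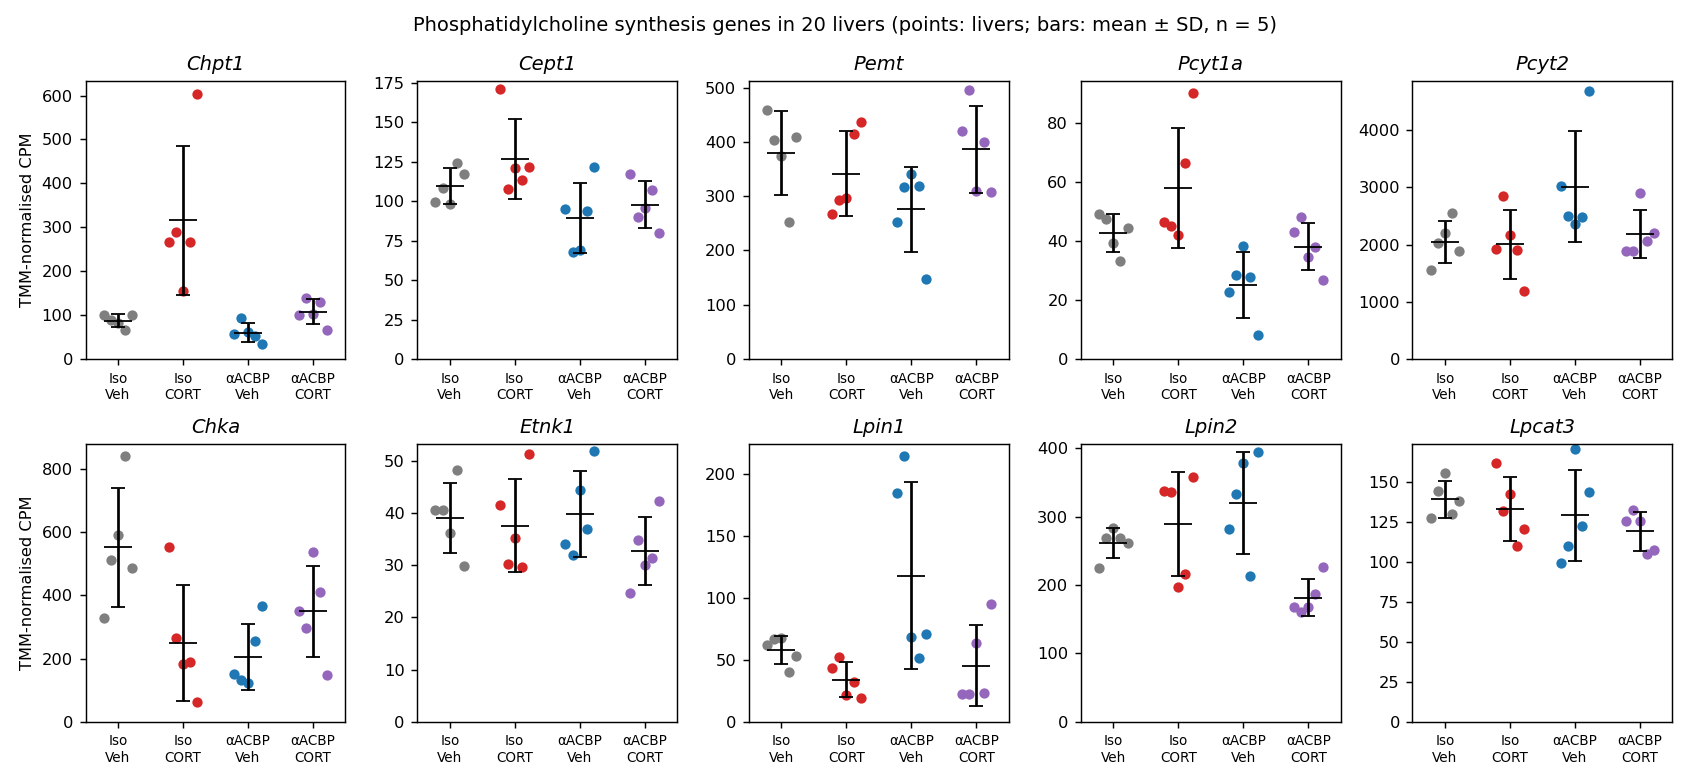
TMM-normalized CPM of each of the 10 genes in every liver, with 1 panel per gene, a linear axis from 0 and 1 colour per group; points are livers and bars the mean ± SD (n = 5). Chpt1 is the only gene whose 5 Isotype + CORT livers lie above all Isotype + Vehicle livers, between 154 and 605 CPM against 65.4 to 101 CPM.

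With CORT under isotype Chpt1 had a log2 fold change of 1.85 (SE, the standard error, 0.29; adjusted p = 0.000722, edgeR's quasi-likelihood test). Without replicate 5 of Isotype + CORT the log2 fold change was 1.47 (adjusted p = 0.000795). Between αACBP + CORT and Isotype + CORT it was -1.56 (SE 0.28), the difference for which the gene was chosen; these comparisons share the Isotype + CORT livers, so that 1 set of high values enters both. The Isotype + CORT livers enter none of the other 3 comparisons of groups, and in these Chpt1 did not pass the adjusted p in edgeR's test. The αACBP + CORT livers, the low side of the choice, do enter the comparisons with αACBP + Vehicle and with Isotype + Vehicle. Both groups of the choice enter the interaction. Under αACBP the log2 fold change with CORT was 0.85 (SE 0.28, adjusted p = 0.184), and under vehicle that of αACBP was -0.56 (SE 0.28, adjusted p = 0.262; -0.42 without replicate 5 of αACBP + Vehicle). αACBP + CORT livers differed from Isotype + Vehicle livers by 0.29 (SE 0.28, adjusted p = 0.966). In ascending order the group means were 59.6 ± 21.4, 87.7 ± 14.5, 107 ± 28.4 and 316 ± 169.6 CPM (SD, n = 5) for αACBP + Vehicle, Isotype + Vehicle, αACBP + CORT and Isotype + CORT. Among the first 3 groups no comparison passed the adjusted p in edgeR's test, which does not show that their levels were alike. The difference between the CORT effects under both antibodies, the interaction, was -1.001 (SE 0.39) and missed the threshold (adjusted p = 0.322), so that a smaller CORT effect under αACBP was not shown.

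**Figure D2:**
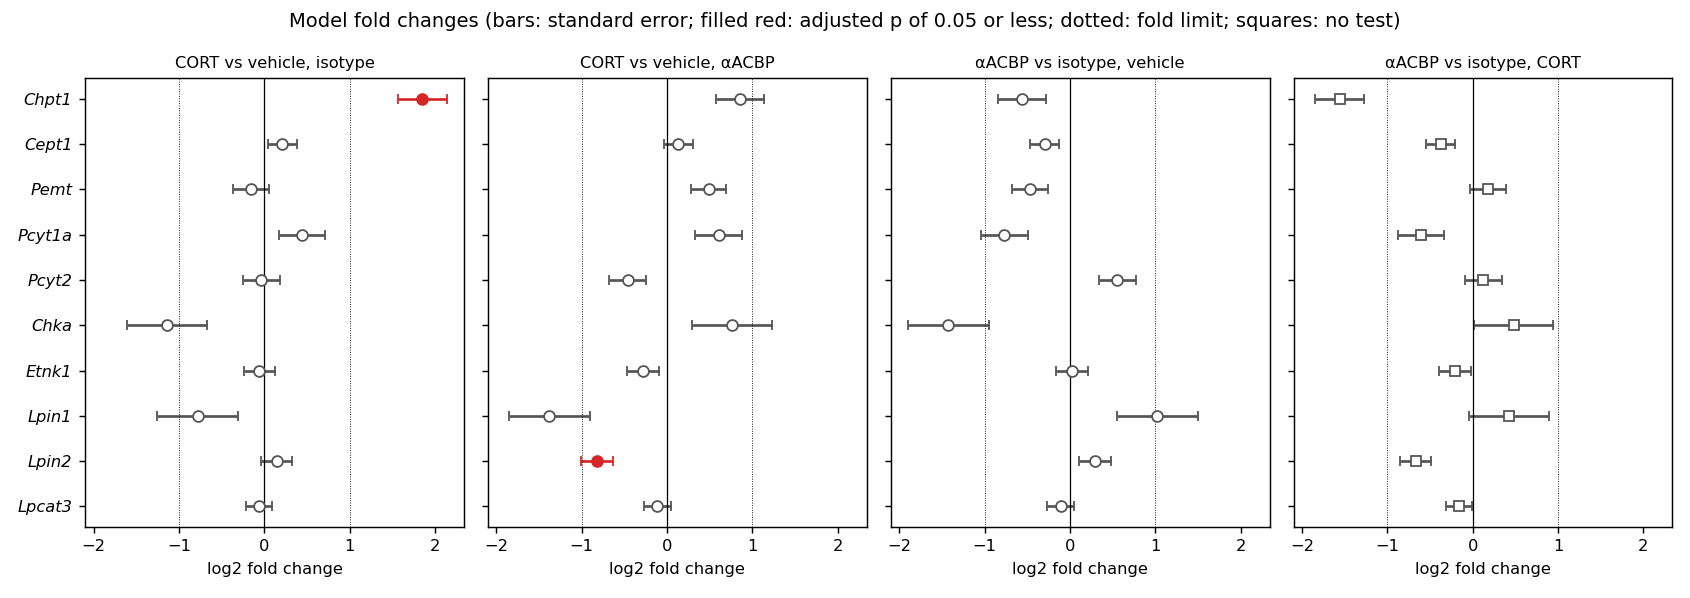
Log2 fold changes of the 10 genes in 4 comparisons, with standard errors; filled red circles passed the adjusted p of 0.05, open circles did not, squares mark the comparison that chose Chpt1 and was not tested, and dotted lines mark the fold limit. Chpt1 with CORT under isotype (1.85) and Lpin2 with CORT under αACBP (-0.82) are the only filled points.

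Exons of Sycp3, which encodes a component of the synaptonemal complex of meiotic cells, run opposite to 661 exon bases of Chpt1. They cover 7.30% of the exon bases of Chpt1 and 48.5% of those of Sycp3. Read pairs in such a stretch were counted on both genes unless the counting used strand, and whether it did is not stated in the sources used here. Sycp3 followed Chpt1: its log2 fold change with CORT under isotype was 1.47 (SE 0.23, adjusted p = 0.000547, edgeR), and between αACBP + CORT and Isotype + CORT it was -1.19. The germ cell markers Sycp1, Sycp2, Ddx4 and Dazl summed to at most 3.28 CPM in any liver, while Sycp3 was at 33.0 to 34.6 CPM in Isotype + Vehicle livers. The share of Sycp3 counts that came from Chpt1 transcripts cannot be told from the count table. The log2 ratio of Chpt1 to Sycp3 counts was 1.36 ± 0.25 in Isotype + Vehicle and 1.67 ± 0.32 in Isotype + CORT livers (SD, n = 5; two-sided exact permutation test, p = 0.151, adjusted p = 0.261 over 28 tests of ratios). Gnptab, a neighbouring gene on chromosome 10, does not overlap Chpt1, encodes a subunit of the enzyme that tags lysosomal proteins, and passed no comparison; its log2 fold change with CORT under isotype was -0.27 (SE 0.26, adjusted p = 0.727, edgeR).

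**Figure D3:**
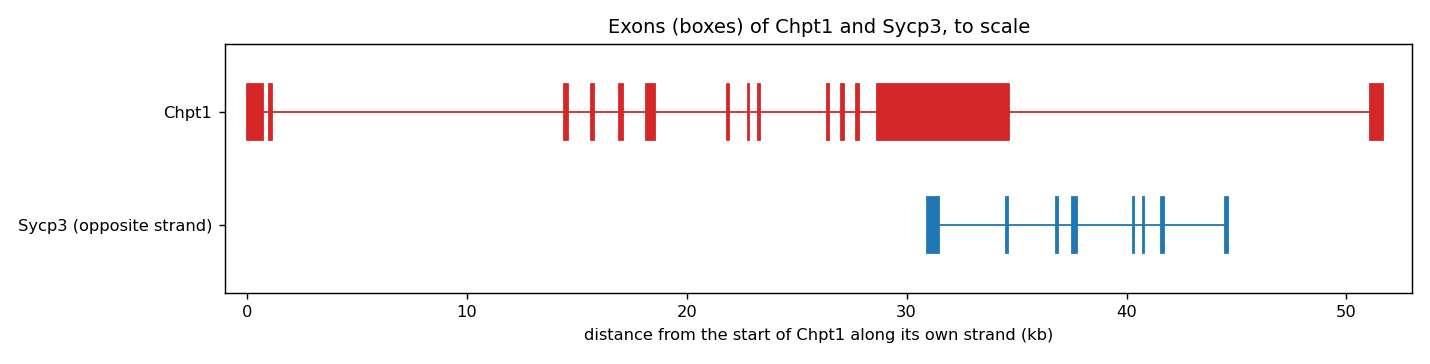
Exons of Chpt1 and Sycp3 as boxes, to scale, against the distance in kb from the start of Chpt1 along its own strand; lines are introns. The leftmost exons of Sycp3 lie opposite the long exon of Chpt1, where the 661 shared bases are.

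Cept1 (ENSMUSG00000040774.15; chromosome 3, 106409424 to 106455737, minus strand) encodes the choline/ethanolamine phosphotransferase of the endoplasmic reticulum. It did not follow Chpt1, and no comparison passed the test. It was at 99.4, 108, 98.2, 124 and 117 CPM in Isotype + Vehicle livers and at 171, 108, 121, 113 and 121 CPM in Isotype + CORT livers, a log2 fold change of 0.21 (SE 0.17, adjusted p = 0.644, edgeR). In the αACBP + Vehicle livers it was at 95.2, 67.8, 68.7, 93.5 and 121 CPM, and in the αACBP + CORT livers at 117, 89.7, 95.7, 107 and 79.5 CPM. All 4 groups overlapped, and replicate 1 of Isotype + CORT was the highest liver. Dram2 and Dennd2d, on the opposite strand, share 16.2% of its exon bases.

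The ratio of Chpt1 to Cept1 counts within a liver, which no normalization can move, rose with CORT under isotype. It was 0.813 ± 0.178 in Isotype + Vehicle, 2.57 ± 1.46 in Isotype + CORT, 0.741 ± 0.416 in αACBP + Vehicle and 1.10 ± 0.293 in αACBP + CORT livers (SD, n = 5). The Isotype + CORT livers lay between 1.27 and 4.98, above the highest Isotype + Vehicle liver at 1.02. Their Chpt1 counts also entered the choice of that gene, so that a test on them is not independent of it. On the log2 scale the difference was 1.53 (two-sided exact permutation test, p = 0.00794, the smallest that 5 against 5 livers can give; adjusted p = 0.0444 over 28 tests). Under αACBP the difference with CORT was 0.73 (exact permutation test, p = 0.111, adjusted p = 0.222). Per kb of exon both genes were at like levels in Isotype + Vehicle livers, 9.68 CPM for Chpt1 and 9.16 CPM for Cept1, and at 34.9 and 10.6 CPM in Isotype + CORT livers.

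**Figure D4:**
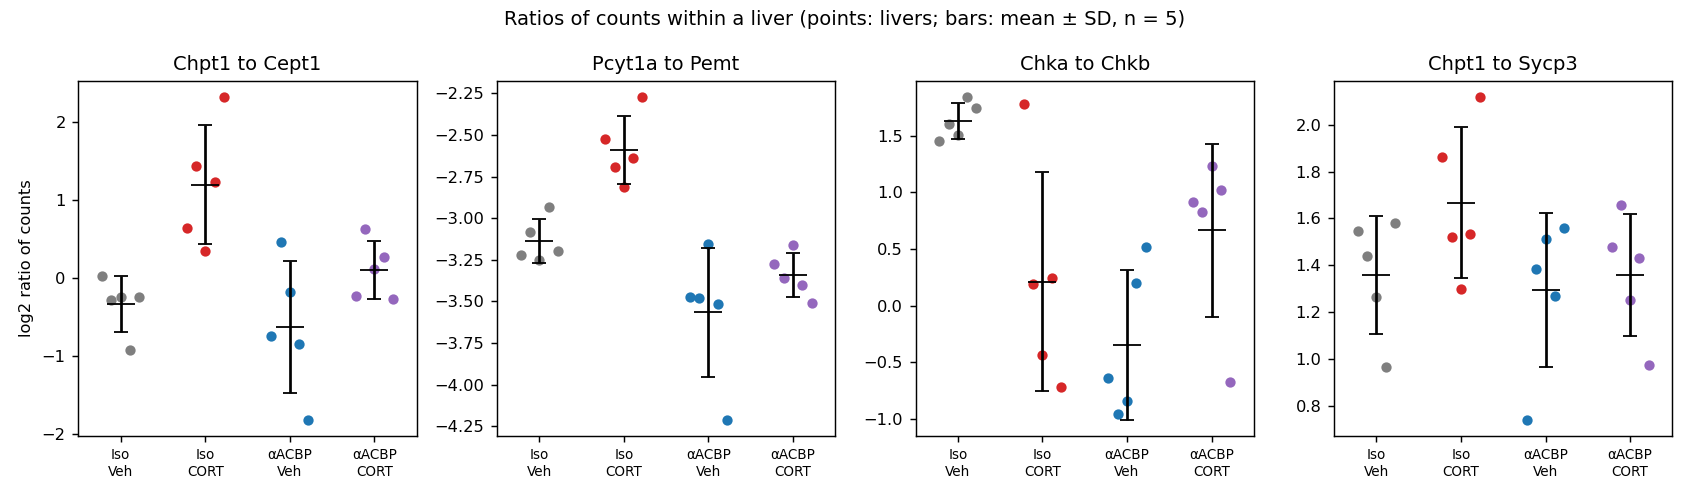
Log2 ratios of the counts of 2 genes within a liver, 1 panel per ratio; points are livers and bars the mean ± SD (n = 5). Chpt1 to Cept1 and Pcyt1a to Pemt are higher in all 5 Isotype + CORT livers than in the Isotype + Vehicle livers, and Chka to Chkb is lower in all αACBP + Vehicle livers than in the Isotype + Vehicle livers.

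Chka (ENSMUSG00000024843.15; chromosome 19, 3901743 to 3944381, plus strand) encodes choline kinase alpha, which phosphorylates choline in the first step of the route. Its levels were highest in the Isotype + Vehicle group, at 329, 512, 592, 841 and 485 CPM. The Isotype + CORT livers had 552, 266, 183, 188 and 62.2 CPM, the αACBP + Vehicle livers 151, 133, 122, 257 and 366 CPM, and the αACBP + CORT livers 351, 297, 539, 409 and 149 CPM. In each of the 3 treated groups at least 1 liver reached into the Isotype + Vehicle range. No comparison passed the adjusted p in edgeR's test, with log2 fold changes of -1.42 for αACBP under vehicle (SE 0.47, adjusted p = 0.0870) and of -1.14 for CORT under isotype (SE 0.47, adjusted p = 0.226). Under vehicle the αACBP difference passed with DESeq2's Wald test (adjusted p = 0.0469) and in a fit of these 2 groups alone (adjusted p = 0.0184). Without replicate 1 of Isotype + CORT, its highest liver, the CORT difference was -1.66 (adjusted p = 0.0491, edgeR). The interaction was 1.90 (SE 0.66, adjusted p = 0.265).

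Chkb encodes choline kinase beta, the second choline kinase gene, and was not among the 10. The ratio of Chka to Chkb counts was 3.11 ± 0.351 in Isotype + Vehicle, 1.42 ± 1.15 in Isotype + CORT, 0.859 ± 0.409 in αACBP + Vehicle and 1.73 ± 0.654 in αACBP + CORT livers (SD, n = 5). All αACBP + Vehicle livers, at most 1.43, lay below all Isotype + Vehicle livers, at least 2.74 (two-sided exact permutation test, p = 0.00794, adjusted p = 0.0444). The αACBP + CORT livers, at most 2.35, also lay below the Isotype + Vehicle livers (exact permutation test, p = 0.00794, adjusted p = 0.0444). Part of the lower ratio came from Chkb, whose own log2 fold change with αACBP under vehicle was 0.44 (SE 0.20, adjusted p = 0.203, edgeR).

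Pcyt1a (ENSMUSG00000005615.14; chromosome 16, 32249426 to 32294242, plus strand) encodes the enzyme that turns phosphocholine into CDP-choline and sets the rate of the route. Its livers stood at 49.3, 47.7, 39.3, 33.1 and 44.5 CPM in Isotype + Vehicle and at 46.5, 45.3, 42.0, 66.6 and 90.2 CPM in Isotype + CORT. With αACBP they stood at 22.8, 28.4, 38.3, 28.0 and 8.01 CPM under vehicle and at 43.3, 48.2, 34.6, 37.9 and 27.0 CPM under CORT. The lowest value was that of replicate 5 of αACBP + Vehicle, the liver that stood apart. With αACBP under vehicle the log2 fold change was -0.77 (SE 0.28, adjusted p = 0.0979, edgeR), and -0.55 without that liver (adjusted p = 0.164). CORT under isotype gave 0.44 (SE 0.27, adjusted p = 0.487). Exons of Slc51a and of 2 lncRNA genes on the other strand cover 17.7% of the exon bases of Pcyt1a.

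Pemt (ENSMUSG00000000301.16; chromosome 11, 59861440 to 59950424, minus strand) encodes the methyltransferase that turns phosphatidylethanolamine into phosphatidylcholine. Per kb of exon it was the second highest of the 10 genes, at 99.98 CPM in Isotype + Vehicle livers. Its levels were 253 to 459 CPM in Isotype + Vehicle, 267 to 436 CPM in Isotype + CORT, 148 to 341 CPM in αACBP + Vehicle and 307 to 495 CPM in αACBP + CORT livers, and all groups overlapped. No comparison passed the test, and the log2 fold changes between groups lay between -0.46 (αACBP under vehicle, adjusted p = 0.204) and 0.49 (CORT under αACBP, adjusted p = 0.320, edgeR). The interaction was 0.64 (SE 0.30, adjusted p = 0.434, edgeR). Replicate 5 of αACBP + Vehicle had the lowest level, 148 CPM, and without it the log2 fold change of αACBP under vehicle was -0.31.

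The ratio of Pcyt1a to Pemt counts, which sets the CDP-choline route beside the methylation route, rose with CORT under isotype. It was 0.107, 0.118, 0.105, 0.131 and 0.109 in the Isotype + Vehicle livers and 0.174, 0.155, 0.142, 0.160 and 0.207 in the Isotype + CORT livers. These groups did not overlap, and the difference on the log2 scale was 0.55 (two-sided exact permutation test, p = 0.00794, adjusted p = 0.0444). In the αACBP + CORT livers the ratio lay between 0.0879 and 0.112, below all Isotype + CORT livers. In the αACBP + Vehicle livers it lay between 0.0540 and 0.112, a log2 difference from Isotype + Vehicle of -0.43 (exact permutation test, p = 0.0317, adjusted p = 0.111). The lowest of these ratios was that of replicate 5, the liver that stood apart, and without it the difference was -0.27. Neither gene passed the test on its own, and the ratio speaks of transcript counts only.

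Pcyt2 (ENSMUSG00000025137.15; chromosome 11, 120500518 to 120508813, minus strand) encodes the enzyme that makes CDP-ethanolamine and sets the rate of the ethanolamine arm. It was the most abundant of the 10 genes per kb of exon, at 427 CPM in Isotype + Vehicle livers. It was at 1559 to 2554 CPM in Isotype + Vehicle, 1181 to 2846 CPM in Isotype + CORT and 1883 to 2898 CPM in αACBP + CORT livers. The αACBP + Vehicle livers had 3028, 2499.7, 2369.5, 2481 and 4685 CPM, with replicate 5 far above the others. The log2 fold change with αACBP under vehicle was 0.56 (SE 0.22, adjusted p = 0.133, edgeR) and 0.33 without that liver (adjusted p = 0.427). The log2 ratio of Pcyt1a to Pcyt2 counts differed by -1.45 with αACBP under vehicle (two-sided exact permutation test, p = 0.0159, adjusted p = 0.0635) and by -0.91 without that liver.

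Etnk1 (ENSMUSG00000030275.6; chromosome 6, 143112947 to 143178033, plus strand) encodes ethanolamine kinase, the first enzyme of the ethanolamine arm. Its level was 39.1 ± 6.73 CPM in Isotype + Vehicle, 37.6 ± 8.98 CPM in Isotype + CORT, 39.8 ± 8.19 CPM in αACBP + Vehicle and 32.6 ± 6.53 CPM in αACBP + CORT livers (SD, n = 5). The 4 groups overlapped, and no log2 fold change between groups was larger in size than that of CORT under αACBP, -0.29 (SE 0.19, adjusted p = 0.562, edgeR). Per kb of exon it was the lowest of the 10 genes, at 2.29 CPM in Isotype + Vehicle livers.

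Lpin2 (ENSMUSG00000024052.17; chromosome 17, 71489555 to 71556909, plus strand) encodes a phosphatidate phosphatase, an enzyme that makes the diacylglycerol used in the last step. Its levels in the αACBP + CORT livers were the lowest, at 168, 160.3, 167, 187 and 226 CPM. The αACBP + Vehicle livers had 282, 333, 379, 213 and 395 CPM, the Isotype + Vehicle livers 225 to 283 CPM and the Isotype + CORT livers 197 to 358 CPM. Of the αACBP + Vehicle livers only replicate 4, at 213 CPM, lay within the αACBP + CORT range, and both isotype groups reached into it too. With CORT under αACBP it fell by a log2 fold change of -0.82 (SE 0.19, adjusted p = 0.0478, edgeR), less than the fold limit. The adjusted p rose to 0.0503 or more in 14 of the 20 fits that left out 1 liver, and to 0.0707 in a fit of these 2 groups alone, while the log2 fold change stayed between -0.93 and -0.73 in the 20 fits. Under isotype the CORT difference was 0.14 (SE 0.19, adjusted p = 0.816). The interaction was -0.96 (SE 0.26) and passed with DESeq2's Wald test (adjusted p = 0.0282) but not with edgeR's (adjusted p = 0.105). Between αACBP + CORT and Isotype + CORT the log2 fold change was -0.67 (SE 0.19).

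Lpin1 (ENSMUSG00000020593.14; chromosome 12, 16584818 to 16703913, minus strand) encodes a second phosphatidate phosphatase of the same family, known to follow fasting and daily rhythm in the liver. Its αACBP + Vehicle livers fell into high and low values, at 184, 214, 68.6, 51.4 and 70.8 CPM. The Isotype + Vehicle livers had 62.2, 66.6, 67.2, 40.1 and 53.3 CPM, the Isotype + CORT livers 43.3, 52.4, 21.5, 31.9 and 19.5 CPM, and the αACBP + CORT livers 22.6, 22.4, 63.6, 23.2 and 94.7 CPM. The log2 fold change was 1.03 for αACBP under vehicle (SE 0.47, adjusted p = 0.229, edgeR), and it was 0.81 without replicate 1 and 0.69 without replicate 2 of αACBP + Vehicle. That of CORT under αACBP was -1.38 (SE 0.48, adjusted p = 0.225), and that of CORT under isotype -0.78 (SE 0.47, adjusted p = 0.488). Within a liver, the log2 ratio of Lpin1 to Lpin2 counts was lower by 0.96 with CORT under isotype, at -2.20 ± 0.34 against -3.16 ± 0.61 (SD, n = 5; exact permutation test, p = 0.0159, adjusted p = 0.0635).

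Lpcat3 (ENSMUSG00000004270.13; chromosome 6, 124639765 to 124684440, plus strand) encodes the acyltransferase that puts polyunsaturated chains into phosphatidylcholine. Its counts are uncertain, since exons of Emg1 and of 2 lncRNA genes on the opposite strand share 55.6% of its exon bases. It was at 139 ± 11.5 CPM in Isotype + Vehicle, 133 ± 20.2 CPM in Isotype + CORT, 129 ± 28.4 CPM in αACBP + Vehicle and 119 ± 12.2 CPM in αACBP + CORT livers (SD, n = 5). The groups overlapped and no comparison passed the test, with adjusted p between 0.784 and 0.976 in the tested comparisons of edgeR.

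The call of a changed gene needed both an adjusted p up to 0.05 and a log2 fold change of 1 or more in size. With CORT under isotype 1 of the 10 genes, Chpt1, was called, where 1.94% of all 16071 genes tested were, and the same gene was the only one whose groups did not overlap (5.04% of all genes); 2 members had an unadjusted p under 0.05 (15.6%). The Isotype + CORT livers also entered the choice of Chpt1. Its call and lack of overlap here are therefore not independent of that choice. The median log2 fold change of the members was -0.04, beside 0.00 over all genes. Between αACBP + CORT and Isotype + CORT the gene called was Chpt1, 1 of 10, which follows from its selection on this comparison and is no result; over all genes 0.597% were called, 0.958% passed the adjusted p alone, 12.5% had an unadjusted p under 0.05 and 3.22% had groups without overlap. With CORT under αACBP no member was called (0.212% of all genes), 1 passed the adjusted p alone (0.305%), 6 had an unadjusted p under 0.05 (12.7%), and none had groups without overlap (2.74%); DESeq2 called none. With αACBP under vehicle no member was called in edgeR's test (1.3% of all genes), 1 was with DESeq2, and 5 had an unadjusted p under 0.05 (20.6%); these 5 were Chka, Lpin1, Pcyt1a, Pcyt2 and Pemt, and no member had groups without overlap (7.13%). No member was called between αACBP + CORT and Isotype + Vehicle (0.0684% of all genes; 0.0809% passed the adjusted p alone), 1 had an unadjusted p under 0.05 (7.59%), none had groups without overlap (3.31%), and DESeq2 called none. In the interaction no member was called by edgeR (0.143%; 4 at an unadjusted p under 0.05, 10.6% of all genes) or by DESeq2.

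Of 82 further genes of phospholipid metabolism, 77 were tested. With CORT under isotype 3 of them rose and 4 fell at an adjusted p of 0.05 or less (3.2% of all genes passed), and 2 were called, both lower (1.94% of all genes were called). Those called were Lpcat2, an acyltransferase of leukocytes that makes platelet-activating factor (log2 fold change -3.21, SE 0.79, adjusted p = 0.0245), and Pltp, the phospholipid transfer protein of plasma (-1.52, SE 0.25, adjusted p = 0.000762). Some Isotype + CORT livers had no Lpcat2 counts, so that its fold change depends on the prior count of the fit. The sum of 7 markers of Kupffer cells and macrophages was also lower with CORT, at 103 to 282 CPM in Isotype + CORT against 264 to 472 CPM in Isotype + Vehicle livers. All 7 markers were lower, 4 of them called (1.94% of all genes were), and none was at 0. The sum was 392 to 618 CPM in αACBP + Vehicle and 344 to 478 CPM in αACBP + CORT livers. Clec4f, the most abundant of the 7, had a mean of 189 CPM in Isotype + Vehicle and 313 CPM in αACBP + Vehicle livers. With αACBP under vehicle 3 of the 7 markers were higher and 4 lower, and none passed the adjusted p. B cell markers summed to 1.16 to 10.1 CPM in Isotype + CORT and 12.8 to 23.8 CPM in Isotype + Vehicle livers. For T and NK cell markers the sums were 0.0644 to 3.62 and 4.01 to 9.45 CPM in the same order. No marker of these lists passed the adjusted p with CORT under isotype. The part of these cell types in the results of Lpcat2 and Pltp was not tested.

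The other genes that passed with CORT under isotype changed by less than the fold limit. Slc44a2, a choline transporter-like protein, fell by a log2 fold change of -0.90 (adjusted p = 0.0219), and Cbs, which commits homocysteine to cysteine synthesis, fell by -0.84 (adjusted p = 0.00266). Abcb4, the transporter that moves phosphatidylcholine into bile, rose by 0.59 (adjusted p = 0.0475), as did the thioesterase gene Lypla1 by 0.64 (adjusted p = 0.0349) and the lipid phosphatase gene Plpp3 by 0.70 (adjusted p = 0.0434, all edgeR). The median over the 77 genes was 0.18, beside 0.00 over all genes. In the ethanolamine and phosphatidylserine arm and in sphingomyelin synthesis no gene passed in any comparison, with Etnk2 (-0.77 with CORT under isotype, adjusted p = 0.0635) and Samd8 (-0.67 with αACBP under vehicle, adjusted p = 0.0590) nearest to it.

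With αACBP under vehicle 8 of the 77 genes passed the adjusted p, 4 higher and 4 lower (5.14% of all genes passed). None was called by edgeR (1.3% of all genes were), while DESeq2 called 1. When 1 liver was left out, between 1 and 13 of the 77 genes passed. Without replicate 5 of αACBP + Vehicle, the liver that stood apart, 3 passed. Of the genes that make and use diacylglycerol, Agpat1 rose by 0.87 (adjusted p = 0.0164) and Dgat1, which turns diacylglycerol into triglyceride, by 0.72 (adjusted p = 0.0264), and Agpat2 fell by -0.93 (adjusted p = 0.0184). The phospholipase genes Pld2 and Pnpla6 rose by 0.90 (adjusted p = 0.0236) and 0.65 (adjusted p = 0.0338). Lypla1 fell by -0.74 (adjusted p = 0.0157), Pla2g12b by -0.82 (adjusted p = 0.0244) and the choline transporter gene Slc44a1 by -0.63 (adjusted p = 0.0284, all edgeR). With CORT under αACBP 1 gene passed, Agpat2, which rose by 1.20 (adjusted p = 0.0136, edgeR), where 0.305% of all genes passed. Without replicate 5 of αACBP + Vehicle no gene of the 77 passed in this comparison. In the comparison of αACBP + CORT with Isotype + Vehicle none passed in edgeR's test, where 0.0809% of all genes did, and DESeq2 called 0. Between αACBP + CORT and Isotype + CORT, described without a test, the log2 fold change was -1.20 for Enpp2, which encodes the lysophospholipase autotaxin, -0.83 for Lypla1 and 0.65 for Cbs. The interaction called Cbs (1.13, SE 0.23, adjusted p = 0.0312, edgeR), where 0.143% of all genes were called. No gene of the 77 passed the interaction when replicate 1 of any 1 of the 4 groups was left out.

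Of 10 transcription factors known for lipid genes none was called in a tested comparison; Srebf1, a driver of fatty acid synthesis, fell with CORT under isotype by -0.81 (adjusted p = 0.0411), and Nr1h2, which encodes the oxysterol receptor LXRβ, rose with αACBP under vehicle by 0.63 (adjusted p = 0.0244, edgeR). Among 9 glucocorticoid targets Fkbp5 rose with CORT under isotype by 1.70 (SE 0.27, adjusted p = 0.000722, edgeR), and the other 8 did not pass (3.2% of all genes passed). With αACBP under vehicle the metallothionein genes Mt1 and Mt2 of the same list rose by 1.38 (adjusted p = 0.0202) and 2.12 (adjusted p = 0.00721).

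Clock genes moved with αACBP under vehicle, the comparison in which 5 members had an unadjusted p under 0.05. Of 18 tested, 5 were called, where 1.3% of all genes were. Dbp, Tef and Ciart rose by 4.31, 2.11 and 3.24 (adjusted p = 0.0287, 0.00859 and 0.00368), and Arntl and Nfil3 fell by -2.11 and -1.14 (adjusted p = 0.0108 and 0.00788, edgeR). Dbp, a transcription factor with a strong daily rhythm, was at 5.42, 17.3, 21.8, 23.5 and 11.2 CPM in Isotype + Vehicle and at 215, 236, 611, 151 and 361 CPM in αACBP + Vehicle livers. The Isotype + CORT livers had 18.7, 22.2, 144, 40.4 and 114 CPM and the αACBP + CORT livers 9.61, 6.44, 7.98, 6.98 and 195 CPM. The livers with Dbp above 100 CPM thus include the αACBP + Vehicle group and 3 livers of the CORT groups. Those 3 livers had Chka at 183, 62.2 and 149 CPM, in the order Isotype + CORT replicates 3 and 5 and αACBP + CORT replicate 5, Lpin1 at 21.5, 19.5 and 94.7 CPM, and Chpt1 at 154, 605 and 66.2 CPM. For Chka these livers were thus among the lowest of their groups, and for Lpin1 and Chpt1 among both the highest and the lowest. With CORT under isotype, the comparison in which Chpt1 was called, Hlf was the only clock gene called (1.21, adjusted p = 0.000980, edgeR), where 1.94% of all genes were. The time of day at which livers were taken is not given for each liver in the labels, and the part of the clock genes in the members' values was not tested.

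**Figure D5:**
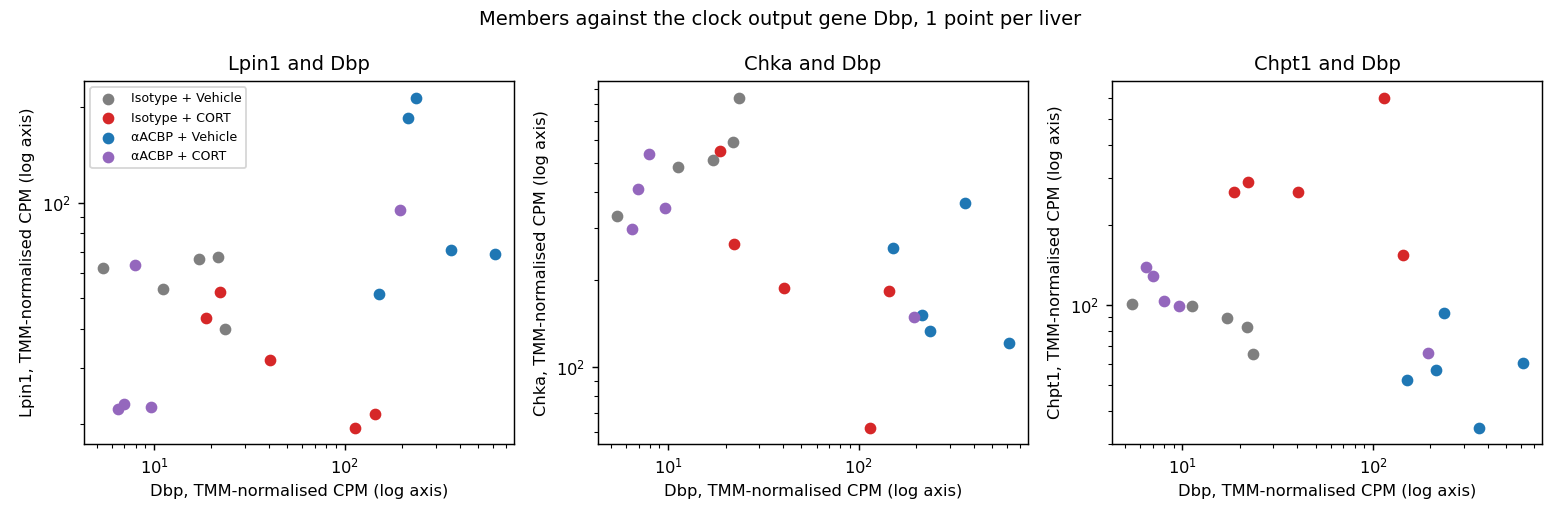
CPM of Lpin1, Chka and Chpt1 against CPM of Dbp, both on log axes, 1 point per liver and 1 colour per group. The αACBP + Vehicle livers lie at 151 to 611 CPM of Dbp, apart from the Isotype + Vehicle livers at 5.42 to 23.5 CPM, and 3 livers of the CORT groups lie above 100 CPM.

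Sycp3, the opposite-strand partner, had the profile nearest to that of Chpt1 among the genes named here (r = 0.960) and was left out of the ranking, as were genes known only by model or clone names. Among the 12149 genes ranked, each with a mean level of 1 CPM or more, the profile of Chpt1 over the 20 livers was most like those of Apob, the structural protein of very-low-density lipoproteins (r = 0.942), Hsd17b4, an enzyme of peroxisomal β-oxidation (0.938), the epoxide hydrolase genes Ephx2 (0.938) and Ephx1 (0.937), and Mup20 (0.931), a major urinary protein whose near-identical family makes its counts uncertain. The correlations are of log2 CPM, the livers share the group differences, and after subtracting the group means they were 0.753 to 0.868. Apob was at 1753 CPM in Isotype + Vehicle, 2869.7 CPM in Isotype + CORT, 1359 CPM in αACBP + Vehicle and 1949.6 CPM in αACBP + CORT livers on average, the same order of groups as Chpt1. Profiles most opposed to it were those of the receptor kinase gene Adrbk2 (r = -0.958), of Avpr2, the V2 vasopressin receptor gene (-0.955), and of Ctsa, which encodes lysosomal cathepsin A (-0.929). Of the other members, Pcyt1a had the highest correlation with Chpt1 (0.792), followed by Pemt (0.443) and Cept1 (0.409), and Pcyt2 the lowest (-0.645). After subtracting the group means these were 0.736 for Pcyt1a, 0.697 for Pemt, -0.291 for Cept1 and -0.666 for Pcyt2, so that Cept1 changed sign.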

How the data were processed

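Liver RNA of 20 mice was sequenced as read pairs, aligned by the authors with HISAT2 and counted per gene with HTSeq-count, with pairs on several genes counted on each; the deposited values are raw counts, not normalized. The paper's methods name GRCm39, the labels mm10, and the annotation and strand setting are not given in the sources used here. Of 48440 gene identifiers, 91.4% were found in GENCODE M39, from which positions (GRCm39) and overlaps were taken. Pairs counted on no gene feature, a median of 43.7% of all pairs per liver, were left out. The labels give no batch.

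Counts were tested with the quasi-likelihood test of edgeR 4.0.16 in R 4.3.3 (TMM, edgeR's filter on low counts, robust estimation) in 1 model of the 4 groups, adjusted by the Benjamini-Hochberg method over 16071 genes. Ratios within a liver were tested by exact permutation. Alternatives were DESeq2 1.42.0, other size factors, no filter, other library sizes, a fit of the groups compared alone, a block for replicate numbers, leaving out each liver and, chosen after seeing the data, voom of limma 3.58.1 with a quality weight for each liver. The scripts were tested on simulated data. Members and lists were chosen with earlier results of these data known. The text names all members, and from each list the genes called at a mean of at least 1 CPM and up to 3 of the smallest adjusted p, with values for those that passed.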

Additional observations from a re-analysis of the deposited data

Results flagged for a closer look

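Of 40 sets of 5 livers (10 genes in 4 groups), 2 held a liver far from the other 4 by Dixon's test, about the 1 in 20 that chance gives. Replicate 1 of Isotype + CORT had 170.8 CPM of Cept1, where the next liver had 121 CPM. Replicate 5 of αACBP + Vehicle had 4685 CPM of Pcyt2, where the next had 3028 CPM; it is also the liver with the lowest mean correlation with its group and the lowest levels of Pcyt1a and Pemt.

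The effect of CORT differed between the antibodies by a tested interaction for Cbs, a gene of methyl donor supply (1.13 on the log2 scale, adjusted p = 0.0312, edgeR), and for the clock gene Nfil3 (1.80, adjusted p = 0.0162). The result for Cbs depended on single livers. When replicate 1 of any 1 of the 4 groups was left out, no gene of the phospholipid lists passed the interaction, Cbs included. In some other fits without 1 liver 1 or more of these genes passed. Cbs was at 642 ± 48.8 CPM in Isotype + Vehicle, 358 ± 63.1 CPM in Isotype + CORT, 459 ± 59.9 CPM in αACBP + Vehicle and 561 ± 87.9 CPM in αACBP + CORT livers (SD, n = 5). Nfil3 was at 68.7 ± 12.8, 53.7 ± 14.7, 31.2 ± 10.02 and 85.2 ± 27.5 CPM in the same order.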

How the results depend on the processing

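The rise of Chpt1 with CORT under isotype passed under all alternatives run, with log2 fold changes of 1.47 to 2.02 when 1 liver was left out. All of these fits used Isotype + CORT livers, which also entered the choice of Chpt1, so that passing is not independent of that choice. With voom and liver weights, Chpt1 also passed with CORT under αACBP (0.87, adjusted p = 0.0308), Pcyt1a with αACBP under vehicle (-0.69, adjusted p = 0.0251; 0.0465 in edgeR without αACBP + Vehicle replicate 3) and Lpin2 between αACBP + CORT and Isotype + Vehicle (-0.56, adjusted p = 0.0196). With αACBP under vehicle 1 member (Chka) was called by DESeq2, in the fit of the groups compared and by voom, and 0 to 1 when a liver was left out; with CORT under isotype 1 to 2 were. Without a fold limit 1 member passed with CORT under αACBP. At an unadjusted p with the fold limit, 2 members passed with CORT under isotype, 1 with CORT under αACBP, 2 with αACBP under vehicle and 2 in the interaction. The share of all genes at this rule was not computed, so that these counts cannot be set beside it. Of the 77 other genes, without a fold limit 7 passed with CORT under isotype (3.2% of all genes), 3 between αACBP + CORT and Isotype + CORT (0.958%) and 8 with αACBP under vehicle (5.14%). DESeq2 called 3 of the 77 between αACBP + CORT and Isotype + CORT (211 of all 16071 genes), 2 with CORT under αACBP (117), 1 with αACBP under vehicle (307) and 4 in the interaction (177). The cause of these differences was not tested.

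Small log2 fold changes turned sign. With voom these were Lpin2 with CORT under isotype (-0.00327), Lpin1 between αACBP + CORT and Isotype + CORT (-0.022), Pemt between αACBP + CORT and Isotype + Vehicle (-0.00667), and the interactions of Cept1 (0.10) and Lpcat3 (0.018). Same-numbered livers are of different mice, and their deviations from group means correlated between -0.0999 and 0.0969. With the replicate number as a block, Etnk1 with αACBP under vehicle turned to -0.00523 and Lpin2 with CORT under αACBP no longer passed (adjusted p = 0.0608); counts of members called did not change.

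When 1 liver was left out, some small differences changed sign. Their lowest and highest values were, with CORT under isotype, -0.20 to 0.11 for Pcyt2 and -0.20 to 0.0289 for Etnk1; between αACBP + CORT and Isotype + CORT, -0.0164 to 0.29 for Pcyt2 and -0.0321 to 0.65 for Lpin1; with CORT under αACBP, -0.19 to 0.00674 for Lpcat3; with αACBP under vehicle, -0.0929 to 0.11 for Etnk1; between αACBP + CORT and Isotype + Vehicle, -0.0926 to 0.10 for Pemt and -0.0293 to 0.18 for Pcyt2; and in the interaction, -0.16 to 0.0762 for Cept1, -0.0393 to 0.38 for Pcyt1a and -0.13 to 0.0713 for Lpcat3. For log2 ratios they were -0.56 to 0.00697 (Chpt1 to Cept1) and -0.16 to 0.0719 (Chpt1 to Sycp3) with αACBP under vehicle, -0.34 to 0.10 (Lpin1 to Lpin2) and -0.10 to 0.0943 (Chpt1 to Sycp3) between αACBP + CORT and Isotype + Vehicle, and -0.0732 to 0.16 (Chpt1 to Sycp3) with CORT under αACBP. Outside the comparison described without a test, each of the 4 ratio differences that passed lost its call in 5 of 10 tests with 1 liver left out (exact permutation test, adjusted p up to 0.0889).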
